A study of Mus musculus with 11 samples.

Results

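The SLC25 family holds the carrier proteins of the inner mitochondrial membrane, and its members were described here in blood vessels of the mouse brain after experimental stroke. A member was any gene of the array whose single symbol was Slc25a followed by a number, read from the probe set with the highest mean signal. The rule found 47 members among 30790 genes, each with 1 probe set, and a RefSeq gene table lists 47 mouse symbols of this form. RNA was measured on 11 Affymetrix arrays from vascular fragments, which are pieces of vessel isolated from brain. They came from adult male C57BL/6 mice and from the ipsilateral hemisphere after MCAO, the occlusion of a middle cerebral artery. Mice given PBS gave 3 arrays at 3 h after MCAO and 3 arrays at 24 h, and mice given imatinib gave 2 arrays at 3 h and 3 arrays at 24 h. PBS is phosphate-buffered saline and imatinib is a tyrosine kinase inhibitor that acts on ABL, KIT and PDGF receptors. Every mouse had MCAO, so vessels without occlusion were not analysed here. Imatinib or PBS was given 3 times before MCAO, and once more, as a 4th dose, in mice studied at 24 h, so dose number and time cannot be told apart. The labels do not say whether replicates were separate animals, and p-values therefore measure only the spread between these samples.

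A mitochondrial carrier is a small bundle of membrane helices that exchanges a metabolite of the cytosol for one of the matrix. Through the family pass ATP and ADP, phosphate, the intermediates of the malate-aspartate shuttle, citrate, acylcarnitines, amino acids, iron, glutathione and cofactors. Brain endothelial cells are known for a high content of mitochondria. Carriers are made in the cytosol, received at the outer membrane by TOMM70, led through the space between the membranes by small TIM chaperones and inserted by the TIM22 complex.

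All values are log2 array signals, in which a difference of 1 is a doubling, and levels of different probe sets are not comparable. The medians of the arrays were 5.20 to 5.28 over all genes. On every array 35 members lay above the median, 6 lay below it on every array (Slc25a21, Slc25a31, Slc25a41, Slc25a43, Slc25a53 and Slc25a54), and 6 lay on both sides. Slc25a21 and Slc25a54 lay below the 25th percentile on all 11 arrays, so a low signal limits what their values show. Each of the 12 endothelial and 10 pericyte markers was above the 25th percentile on at least 1 array, as were the markers of astrocytes, oligodendrocytes, microglia and white blood cells, so this does not tell vessels from other tissue.

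The promoters of 5 carriers that moved with time are printed because they hold motifs of factors known to act on metabolic genes, and they were picked after the values were seen. Windows of 250 bases before to 50 after the gene start were taken from a RefSeq table (build GRCm38.p6), which held 36 of the 47 members. Both members whose RNA was lower at 24 h in PBS, Slc25a25 and Slc25a36, hold the palindrome TGACGTCA, the core of the cyclic AMP response element. Among the 36 members only these 2 hold it, and 549 of all 27025 genes listed do (2.03%). The E-box CACGTG was found in 3 of 8 members higher at 24 h in PBS (Slc25a1, Slc25a13 and Slc25a15) and in 1 of 2 lower members (Slc25a36). It was found in 7 of the 36 members (19.4%) and in 8.09% of all genes. Lines give the 250 bases before the start, 5′ to 3′ on the gene's strand, with TGACGTCA and CACGTG in capitals.
Slc25a25, chr2:32424067-32424316, minus strand: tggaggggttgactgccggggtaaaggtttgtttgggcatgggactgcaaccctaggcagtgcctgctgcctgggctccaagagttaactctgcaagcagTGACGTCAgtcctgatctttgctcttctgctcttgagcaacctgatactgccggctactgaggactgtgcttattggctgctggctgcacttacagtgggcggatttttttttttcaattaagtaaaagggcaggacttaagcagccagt
Slc25a36, chr9:97111042-97111291, minus strand: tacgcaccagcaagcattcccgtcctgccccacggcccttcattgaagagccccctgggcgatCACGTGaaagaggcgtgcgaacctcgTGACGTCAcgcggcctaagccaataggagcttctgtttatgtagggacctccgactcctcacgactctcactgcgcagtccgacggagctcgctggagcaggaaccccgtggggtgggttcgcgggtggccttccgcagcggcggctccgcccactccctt
Slc25a13, chr6:6217174-6217423, minus strand: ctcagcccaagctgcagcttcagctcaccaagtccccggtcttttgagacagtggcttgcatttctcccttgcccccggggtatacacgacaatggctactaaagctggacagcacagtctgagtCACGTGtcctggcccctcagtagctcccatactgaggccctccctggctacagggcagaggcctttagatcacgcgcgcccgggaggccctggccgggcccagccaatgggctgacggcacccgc
Slc25a15, chr8:22398278-22398527, minus strand: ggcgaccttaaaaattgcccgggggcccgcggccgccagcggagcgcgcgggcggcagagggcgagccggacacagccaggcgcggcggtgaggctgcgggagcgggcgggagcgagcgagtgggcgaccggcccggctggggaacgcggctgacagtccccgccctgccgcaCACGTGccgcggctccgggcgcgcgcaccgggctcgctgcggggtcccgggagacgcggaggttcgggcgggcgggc
Slc25a1, chr16:17928220-17928469, minus strand: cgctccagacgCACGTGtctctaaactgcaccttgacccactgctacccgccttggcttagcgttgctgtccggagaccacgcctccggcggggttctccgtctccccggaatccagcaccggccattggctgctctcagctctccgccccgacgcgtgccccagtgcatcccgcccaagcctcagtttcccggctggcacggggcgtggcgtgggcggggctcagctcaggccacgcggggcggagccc

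Both strands were searched, a gene counted if any of its windows matched, and the 2 motifs do not overlap. The window shown for Slc25a25 is 1 of 3 in the table, and that for Slc25a15 is 1 of 2. The other 3 motifs searched were the palindromic site of NRF1, CCGGAAG (ETS factors) and AAGGTCA (nuclear receptors of the ERR type), and none was found in a member that was higher at 24 h in PBS. CCGGAAG occurred in 7 of 36 members (19.4%) against 9.93% of all genes, the NRF1 site in 2 (5.56%) against 5.19%, and AAGGTCA in 1 (2.78%) against 5.38%. CCGGAAG was found in 1 of the 2 members lower at 24 h in PBS, Slc25a25, in a window not shown. A match describes the letters only.

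The first comparison was between 24 h and 3 h after MCAO in the vessels of PBS-treated mice. Higher at 24 h were carriers of the malate-aspartate shuttle and of citrate, a glutamate, an ornithine and a glutathione carrier, and 1 ADP/ATP carrier. An ATP-Mg/phosphate carrier and a pyrimidine nucleotide carrier were lower. Of 47 members 8 rose, 2 fell and 37 did not pass a Benjamini-Hochberg adjusted p of 0.05 over all genes in limma. Over all genes 16.6% passed (9.34% higher and 7.28% lower), against 21.3% of the members (17% higher and 4.26% lower). The median difference of the members was -0.04, with 20 above 0, and that of all genes was -0.02, with 46.1% above 0. The arrays of the 2 times did not overlap for 21 members (44.7%) and for 29.9% of all genes. In bulk RNA, a change in the number of cells of a type and a change in RNA per cell cannot be told apart.

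The same comparison in imatinib-treated mice rests on other arrays. There 9 members rose and 1 fell, where 13.1% of all genes passed (7.76% higher and 5.32% lower). The 2 times did not overlap for 22 members and for 42.3% of all genes, and 26 members and 43.9% of all genes were above 0. The time differences had the same sign in both treatments for 39 members (83%) and for 68.7% of all genes. Of the members 9 passed in both treatments in the same direction, 8 higher and 1 lower, which was so for 10.1% of all genes. In this fit Slc25a36 passed in PBS and not in imatinib and Slc25a37 in imatinib and not in PBS, which other settings changed, and the difference between treatments, tested as an interaction, did not pass for either gene. Across members the PBS and imatinib time differences had a Pearson r of 0.91 (n = 47 genes, which share arrays within each treatment and are not replicates), and across all genes r was 0.79.

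**Figure D1:**
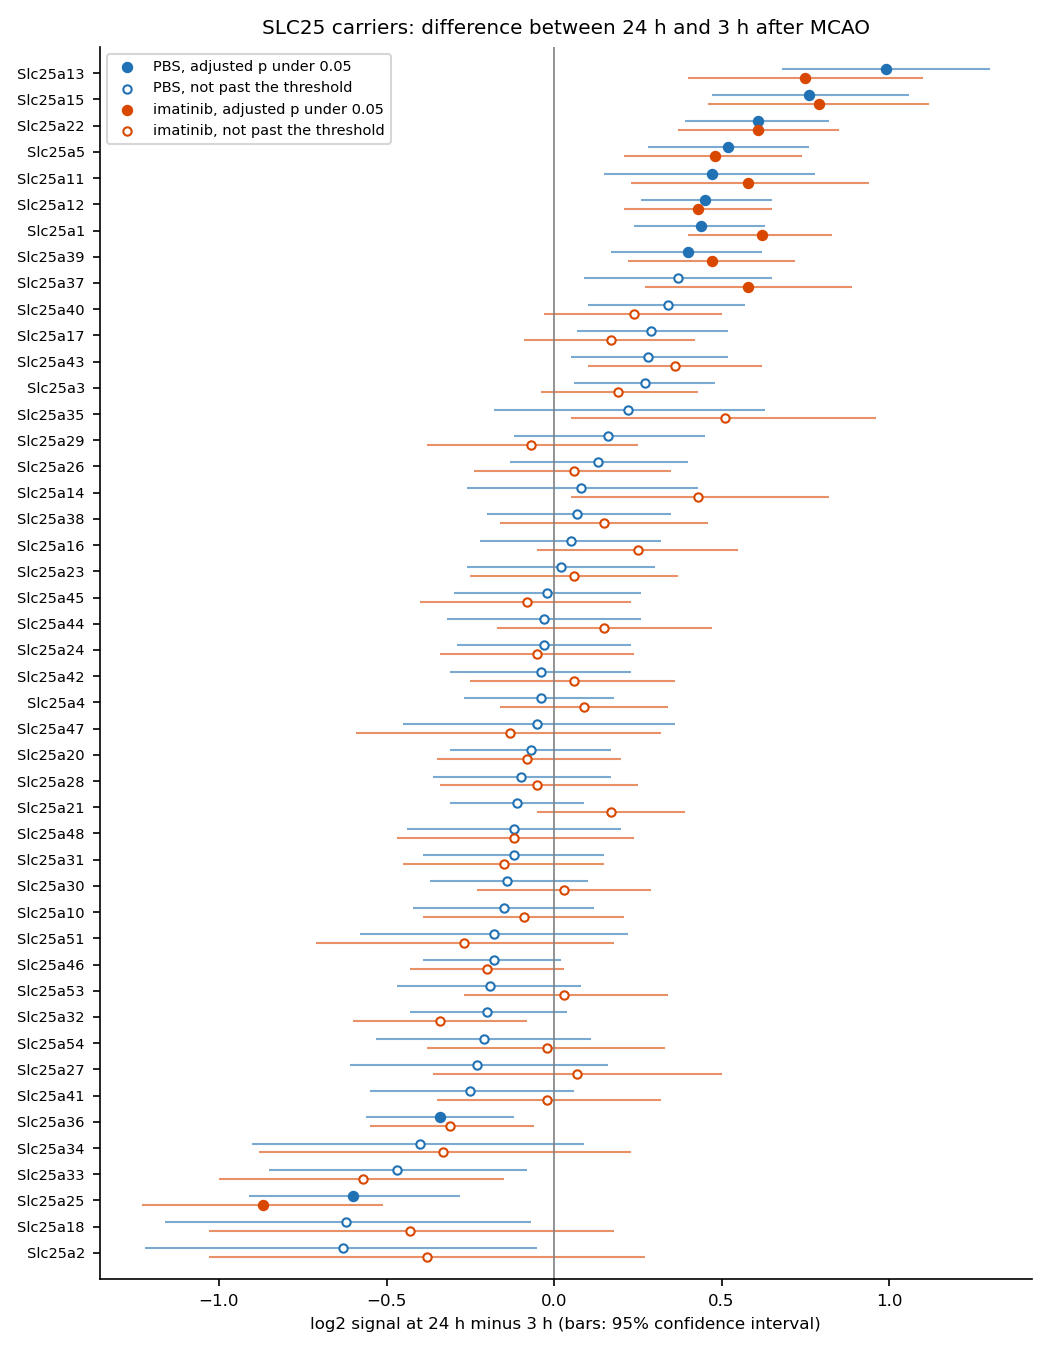
Difference in log2 signal between 24 h and 3 h for each carrier reported by name, in PBS (blue) and imatinib (orange), ordered by the PBS value. Points are limma estimates with 95% confidence intervals, filled where the adjusted p is under 0.05; values run from -0.63 to 0.99 in PBS and from -0.87 to 0.79 in imatinib.

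The aspartate-glutamate carriers export aspartate from the matrix in exchange for glutamate and are a step of the malate-aspartate shuttle, which brings the electrons of cytosolic NADH into mitochondria. Slc25a13 (citrin, or aralar 2) had the largest rise of the family in PBS. Its signals in PBS were 4.99, 4.93 and 4.61 at 3 h and 5.83, 5.80 and 5.87 at 24 h. In imatinib they were 5.10 and 4.63 at 3 h and 5.63, 5.76 and 5.46 at 24 h. All 6 arrays at 24 h lay above all 5 at 3 h, which was so for 10 of the 47 members, Slc25a13 included, and 10% of all genes. The rise was 0.99 ± 0.14 (SE), or 1.98-fold, in PBS (adjusted p = 0.000645 in limma) and 0.75 ± 0.16 in imatinib (adjusted p = 0.00875), where it did not pass without imatinib 3 h replicate 2 (0.52, adjusted p = 0.103).

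Slc25a12 (aralar 1), the other aspartate-glutamate carrier, rose by less. Its signals were 7.18, 7.25 and 7.32 in PBS and 7.17 and 7.18 in imatinib at 3 h, and 7.72, 7.61 and 7.78 in PBS and 7.53, 7.64 and 7.64 in imatinib at 24 h. The 2 times did not overlap. The rise was 0.45 ± 0.09 in PBS (adjusted p = 0.00425 in limma) and 0.43 ± 0.10 in imatinib (adjusted p = 0.015). In imatinib it did not pass without imatinib 3 h replicates 1 (0.42) or 2 (0.43) or imatinib 24 h replicates 2 (0.41) or 3 (0.41).

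Slc25a11, the oxoglutarate carrier, which exchanges malate for 2-oxoglutarate in the same shuttle, rose with wide spread. Signals in PBS were 7.86, 8.27 and 7.85 at 3 h and 8.52, 8.24 and 8.61 at 24 h, so that the groups overlapped. In imatinib they were 7.96 and 7.94 at 3 h and 8.63, 8.64 and 8.33 at 24 h and did not overlap. The difference was 0.47 ± 0.14 in PBS (adjusted p = 0.0467 in limma) and 0.58 ± 0.16 in imatinib (adjusted p = 0.0341). In PBS it kept its call only without PBS 3 h replicate 2, PBS 24 h replicate 2 or imatinib 24 h replicate 3, and was 0.39 to 0.47 without any 1 of the other 8 arrays. It also did not pass with only the arrays of the 2 groups compared (adjusted p = 0.0933 in limma), with quantile normalization (0.0587) or with array quality weights (0.0683), nor in imatinib with quantile normalization (0.0511). In imatinib it did not pass without imatinib 3 h replicates 1 (0.59) or 2 (0.57) or imatinib 24 h replicates 1 (0.53) or 2 (0.53).

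Of the enzymes that complete this shuttle, those of the matrix rose in both treatments and those of the cytosol did not pass in either. Got2, the mitochondrial aspartate aminotransferase, rose by 0.67 ± 0.11 in PBS and 0.88 ± 0.12 in imatinib (adjusted p = 0.00139 and 0.000804 in limma). Mdh2, the mitochondrial malate dehydrogenase, rose by 0.56 in each (adjusted p = 0.00648 and 0.015). Their cytosolic forms were named for their role, with values seen. Got1 was at -0.00 ± 0.13 in PBS and -0.12 ± 0.15 in imatinib (adjusted p = 0.998 and 0.705 in limma). Mdh1 was at 0.18 ± 0.08 and 0.30 ± 0.09 (adjusted p = 0.177 and 0.0577 in limma). Gpd2, the mitochondrial enzyme of the glycerol phosphate shuttle, the other route for these electrons, fell by 0.58 ± 0.10 in PBS and by 0.50 ± 0.11 in imatinib (adjusted p = 0.00179 and 0.0109). Of 7 shuttle enzymes measured, 2 rose and 1 fell in each treatment.

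Among the other amino acid carriers, a glutamate carrier (Slc25a22) and an ornithine carrier (Slc25a15) rose, and the other carriers of these substrates did not. Slc25a22, which brings glutamate into the matrix with a proton, had signals of 6.00, 5.80 and 6.06 in PBS at 3 h and 6.59, 6.59 and 6.50 at 24 h. In imatinib they were 5.77 and 5.73 at 3 h and 6.33, 6.28 and 6.47 at 24 h. All arrays at 24 h lay above all at 3 h, and the rise was 0.61 in both treatments (SE 0.10 and 0.11; adjusted p = 0.00138 and 0.00379 in limma). It passed without each of the 11 arrays in both.

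Slc25a15, which exchanges ornithine and citrulline and links the matrix with arginine and polyamine metabolism, rose from 6.69, 6.25 and 6.69 to 7.42, 7.27 and 7.23 in PBS. In imatinib it rose from 6.38 and 6.50 to 7.26, 7.38 and 7.06. The lowest array at 24 h (7.06) lay above the highest at 3 h (6.69). The rise was 0.76 ± 0.14 in PBS (adjusted p = 0.00234 in limma) and 0.79 ± 0.15 in imatinib (adjusted p = 0.00532), where it did not pass without imatinib 3 h replicate 1 (0.73, adjusted p = 0.0522).

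Of 14 measured genes of ornithine, arginine and polyamine metabolism 3 rose and none fell in PBS. Arg1, arginase 1, which makes ornithine and is abundant in macrophages, rose by 3.94 ± 0.28, Aldh18a1, which makes the precursor of proline and ornithine from glutamate, by 1.25 ± 0.16, and Odc1, which turns ornithine into putrescine, by 0.69 ± 0.10 (adjusted p = 7.06e-06, 0.00029 and 0.000814 in limma). In imatinib these 3 rose by 2.79, 1.61 and 1.03, and Asl of the urea cycle, the 4th that passed there and named for that after values were seen, rose by 0.89 ± 0.18. In PBS Asl was at -0.00 ± 0.17 (adjusted p = 0.995 in limma). Its imatinib minus PBS difference was -0.96 at 3 h and -0.06 at 24 h, and neither passed.

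The remaining amino acid carriers did not pass. Slc25a18, the glutamate carrier known from astrocytes, had signals of 7.52, 6.74 and 7.10 in PBS at 3 h and 6.31, 6.23 and 6.98 at 24 h, and the groups overlapped (-0.62 ± 0.25, adjusted p = 0.126 in limma). In imatinib its difference was -0.43 ± 0.28. Slc25a2, an ornithine carrier, was at -0.63 in PBS, where PBS 3 h replicate 1 read 5.74 and the other arrays at 3 h 4.82 and 4.68. Values in PBS were 0.16 for Slc25a29, a carrier of basic amino acids, 0.07 for Slc25a38, a glycine carrier used in haem synthesis, and -0.03 for Slc25a44, a carrier of branched-chain amino acids. Of 8 astrocyte markers 3 fell and 1 rose in PBS, and 1 fell and 1 rose in imatinib. Their summed unlogged signal was 2209 to 3004 in PBS at 3 h and 1630 to 2432 at 24 h. Their part in the Slc25a18 values was not tested.

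Citrate leaves mitochondria through Slc25a1 and feeds the synthesis of fatty acids and sterols in the cytosol. Slc25a1 had signals of 8.46, 8.43 and 8.29 in PBS and 8.28 and 8.30 in imatinib at 3 h, and 8.89, 8.79 and 8.81 in PBS and 8.84, 8.94 and 8.94 in imatinib at 24 h. The times did not overlap, and the rise was 0.44 ± 0.09 in PBS and 0.62 ± 0.10 in imatinib (adjusted p = 0.00517 and 0.0018 in limma). It passed without each of the 11 arrays in both treatments.

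Of 8 genes measured that handle citrate, or what is made from it, in the cytosol, 4 rose and 1 fell in PBS, and 5 rose and 1 fell in imatinib. In PBS Fasn, fatty acid synthase, rose by 0.89 ± 0.17, Aco1, the cytosolic aconitase that also binds iron-responsive RNA, by 0.80 ± 0.12, and Idh1, the cytosolic isocitrate dehydrogenase, by 0.65 ± 0.12. Acly, which splits citrate to acetyl-CoA, rose by 0.53 ± 0.09 (adjusted p = 0.00188 in limma). Acacb, the acetyl-CoA carboxylase of the mitochondrial surface whose product inhibits fatty acid import, fell by 1.62 ± 0.18 (adjusted p = 0.000147). The dicarboxylate carrier Slc25a10 (-0.15) and the oxodicarboxylate carrier Slc25a21 (-0.11, with low signal) did not pass.

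Slc25a20, the carnitine-acylcarnitine carrier of fatty acid oxidation, did not pass in either treatment (-0.07 ± 0.11 in PBS and -0.08 in imatinib). Its 95% confidence interval in PBS ran from -0.31 to 0.17. Of 14 genes of the carnitine shuttle and fatty acid oxidation 1 rose and 3 fell in PBS, the latter including Cpt1a, which makes acylcarnitines at the outer membrane (-0.57 ± 0.09, adjusted p = 0.00134 in limma; -0.30 ± 0.10 and adjusted p = 0.0826 in imatinib). In imatinib 2 rose and 1 fell.

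The ADP/ATP carriers exchange the ATP made in the matrix for ADP. Slc25a5 (ANT2), the form known from proliferating cells, had signals of 10.36, 10.06 and 10.08 in PBS and 10.12 and 10.23 in imatinib at 3 h, and 10.71, 10.56 and 10.78 in PBS and 10.61, 10.70 and 10.65 in imatinib at 24 h. The times did not overlap. The rise was 0.52 ± 0.11 in PBS (adjusted p = 0.00629 in limma) and 0.48 ± 0.12 in imatinib (adjusted p = 0.0228). In imatinib it did not pass without imatinib 3 h replicates 1 (0.42) or 2 (0.53) or imatinib 24 h replicates 2 (0.45) or 3 (0.48). The RefSeq table gives Slc25a5 also as a synonym of another locus, Gm5560, so a near-identical copy could share its signal.

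Slc25a4 (ANT1), the form of heart and muscle, did not pass. It read 9.07, 9.03 and 8.89 in PBS at 3 h and 9.02, 9.06 and 8.79 at 24 h, and 8.81 and 8.95 against 8.98, 8.91 and 9.01 in imatinib. Its differences were -0.04 ± 0.10 and 0.09 ± 0.12 (95% confidence intervals -0.27 to 0.18 and -0.16 to 0.34). Slc25a31 (ANT4), the form of the testis, lay below the median of all genes on every array and was at -0.12 in PBS. Slc25a3, the phosphate carrier that supplies ATP synthase, had all arrays at 24 h above those at 3 h (8.56 or more against 8.50 or less), but its difference of 0.27 ± 0.10 did not pass (adjusted p = 0.0803 in limma).

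Genes that share these substrates moved in both directions. Of 10 adenine nucleotide and permeability transition partners 4 rose and 2 fell in each treatment. In PBS Ppif, cyclophilin D of the permeability transition pore, rose by 1.05 ± 0.16, and Atpif1, the inhibitor of ATP synthase, by 0.81 ± 0.11. The matrix adenylate kinases Ak3 and Ak4 fell by 0.73 ± 0.11 and 0.59 ± 0.12 (adjusted p = 0.000977 and 0.00673 in limma).

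The ATP-Mg/phosphate carriers are regulated by calcium and change the total of adenine nucleotides in the matrix. Among the 47 members, Slc25a25 (SCaMC-2) had the largest fall that passed the threshold. Its signals were 7.21, 6.93 and 6.85 in PBS and 7.39 and 7.15 in imatinib at 3 h, and 6.59, 6.22 and 6.39 in PBS and 6.63, 6.22 and 6.35 in imatinib at 24 h. Every array at 24 h was below every array at 3 h, as was so for 5 of the 47 members, Slc25a25 included, and for 7.02% of all genes. The fall was -0.60 ± 0.15 in PBS (adjusted p = 0.0145 in limma) and -0.87 ± 0.16 in imatinib (adjusted p = 0.00449). In PBS it did not pass without PBS 3 h replicate 1 (-0.49) or PBS 24 h replicate 2 (-0.51), and in imatinib without imatinib 3 h replicate 1 (-0.75). Its relatives Slc25a23 (0.02 ± 0.13), Slc25a24 (-0.03 ± 0.12) and Slc25a41 (-0.25, signal below the median on every array) did not pass in PBS.

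**Figure D2:**
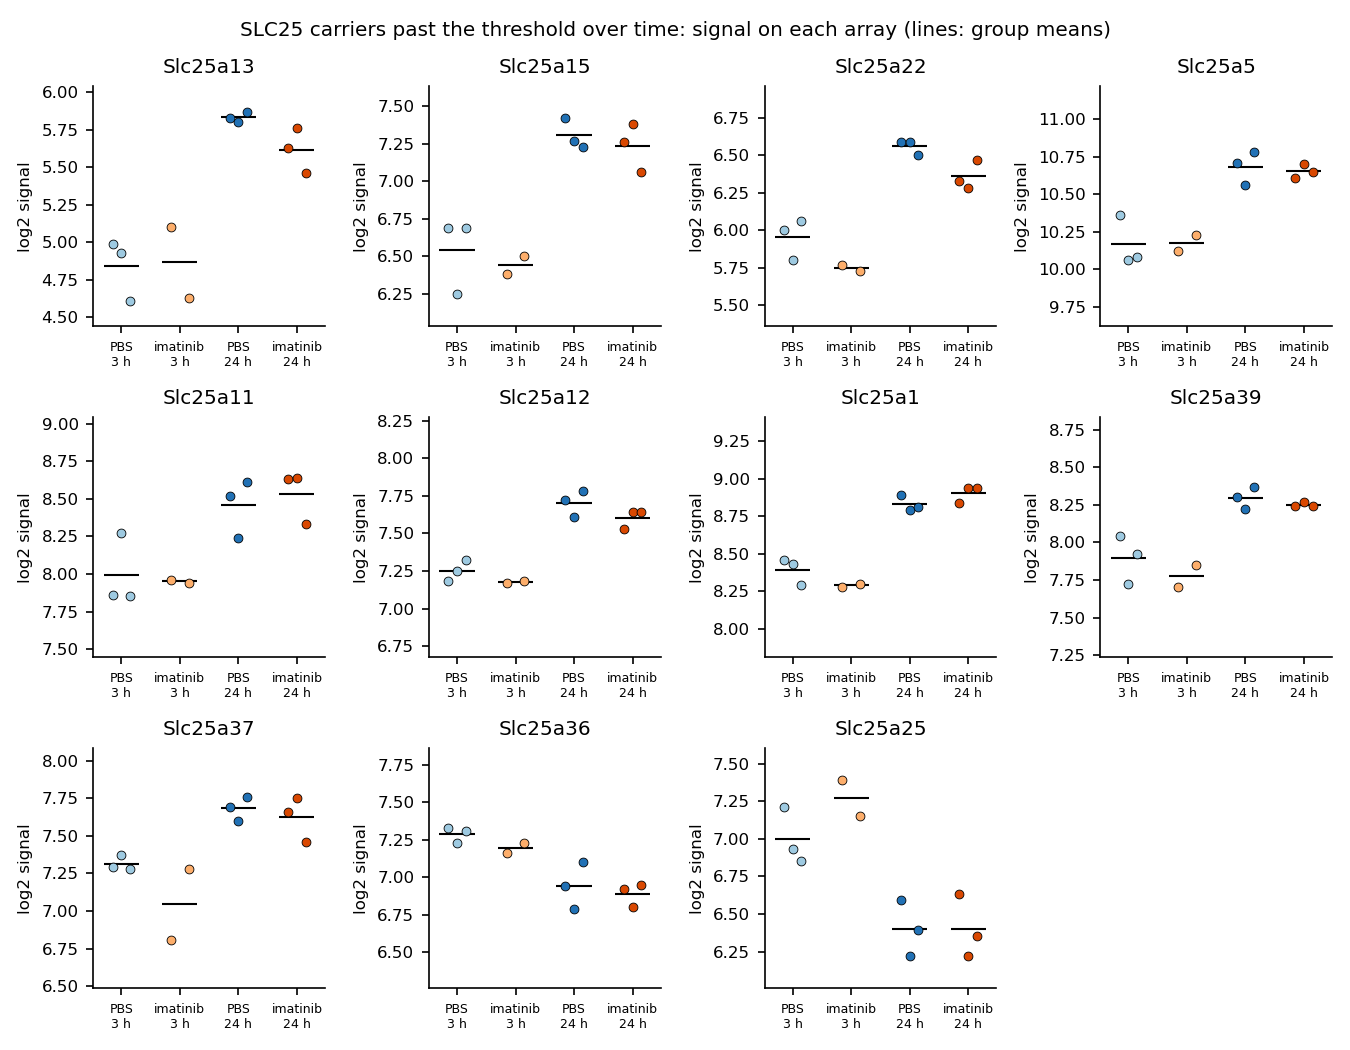
Log2 signal on each of the 11 arrays for the 11 carriers that passed the threshold over time in PBS or imatinib, with group means as lines; each panel spans 1.6 log2 units. For 8 of the 9 carriers in which the arrays at 24 h were higher, all but Slc25a11, every array at 24 h lies above every array at 3 h.

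Of the 9 other carriers of nucleotides and cofactors 1 fell in PBS, and none passed the threshold in imatinib. Slc25a36, which carries pyrimidine nucleotides, fell from 7.33, 7.23 and 7.31 to 6.94, 6.79 and 7.10 in PBS, a difference of -0.34 ± 0.10 (adjusted p = 0.0391 in limma). In imatinib it read 7.16 and 7.23 at 3 h and 6.92, 6.80 and 6.95 at 24 h (-0.31 ± 0.11, adjusted p = 0.107). The times did not overlap, but the PBS call was kept only without PBS 24 h replicate 3 and lost without any 1 of the other 10 arrays (-0.42 to -0.26 over all 11). The PBS call was also lost with only the arrays of the 2 groups compared (adjusted p = 0.101 in limma), with arrays centred on their medians (0.0506) and with array quality weights (0.061), while Slc25a36 passed in imatinib without genes below the median signal (0.0468) or with quantile normalization (0.0475). Slc25a33, a pyrimidine nucleotide carrier induced by insulin signalling, had each 24 h array (6.17 or less) below each 3 h array (6.17 or more, before rounding) and did not pass (-0.47 ± 0.17 in PBS and -0.57 ± 0.19 in imatinib, adjusted p = 0.0988 and 0.0809).

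Slc25a32, which carries folate or FAD, likewise had all 24 h arrays (7.41 to 7.69) below the 3 h arrays (7.70 to 7.97) and did not pass (-0.20 in PBS, -0.34 in imatinib). Of 10 matrix folate enzymes 3 rose, none fell and 7 did not pass in PBS, with Shmt2, serine hydroxymethyltransferase, at 1.85 ± 0.18, Mthfd2 at 1.02 ± 0.11 and Dld at 0.32 ± 0.10 (adjusted p = 4.71e-05, 0.000128 and 0.0441 in limma). In imatinib Shmt2 and Mthfd2 rose, by 2.17 and 0.84. Values in PBS for further carriers of this class were 0.29 for the peroxisomal carrier Slc25a17, 0.13 for the S-adenosylmethionine carrier Slc25a26, 0.05 for Slc25a16 and -0.04 for Slc25a42, both linked to coenzyme A, and -0.18 for the NAD carrier Slc25a51.

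Of the carriers of iron and glutathione, Slc25a39 rose in both treatments. Slc25a39, which brings glutathione into the matrix, read 8.04, 7.72 and 7.92 in PBS and 7.70 and 7.85 in imatinib at 3 h, and 8.30, 8.22 and 8.37 in PBS and 8.24, 8.27 and 8.24 in imatinib at 24 h. The times did not overlap. The rise was 0.40 ± 0.10 in PBS (adjusted p = 0.0192 in limma), lost without PBS 3 h replicate 2 (0.31) or PBS 24 h replicates 1 (0.40) or 3 (0.36), and with only the arrays of the 2 groups compared (adjusted p = 0.0638). In imatinib it was 0.47 ± 0.11 (adjusted p = 0.0178), lost without imatinib 3 h replicate 1 (0.40) or imatinib 24 h replicate 2 (0.47). Its paralogue Slc25a40 did not pass (0.34 ± 0.11 in PBS, adjusted p = 0.0564).

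Slc25a37 (mitoferrin 1), the iron importer best known from red cell precursors, rose in imatinib. Signals in PBS were 7.29, 7.37 and 7.28 at 3 h and 7.69, 7.60 and 7.76 at 24 h (0.37 ± 0.13, adjusted p = 0.0712 in limma, and past the threshold without imatinib 3 h replicate 1 or 2, adjusted p = 0.0326 each). In imatinib they were 6.81 and 7.28 at 3 h and 7.66, 7.75 and 7.46 at 24 h, a rise of 0.58 ± 0.14 (adjusted p = 0.0194). The call was lost without imatinib 3 h replicate 1 (0.34), imatinib 24 h replicate 1 (0.56) or imatinib 24 h replicate 2 (0.52). The value was 0.81 without imatinib 3 h replicate 2. With only the arrays of the 2 groups compared, Slc25a37 passed in PBS (adjusted p = 0.0493 in limma) and not in imatinib (0.074), and it passed in PBS without genes below the median signal (0.0334). Slc25a28 (mitoferrin 2), the form of other tissues, did not pass (-0.10 ± 0.12 in PBS and -0.05 ± 0.14 in imatinib).

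Haem and iron-sulphur genes, which depend on this iron, rose in PBS for 9 of 17, none falling, and in imatinib for 4 of 17. Alad, an enzyme of haem synthesis, rose by 0.80 ± 0.13 in PBS and 0.91 ± 0.15 in imatinib (adjusted p = 0.00152 and 0.00203 in limma). Erythroid markers went in opposite directions in the treatments: their median was 0.41 in PBS, with 3 of 6 higher, and -0.27 in imatinib, with 1 of 6 lower. Their summed signal was 1974 to 2639 in PBS and 3378 to 3847 in imatinib at 3 h, and 3344 to 4328 in PBS and 2389 to 2954 in imatinib at 24 h. Their part in the Slc25a37 values was not tested.

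The carriers named for their likeness to uncoupling proteins did not pass: Slc25a14 was at 0.08 in PBS and 0.43 in imatinib, Slc25a27 at -0.23 and 0.07, and Slc25a30 at -0.14 and 0.03. Slc25a46, which sits in the outer membrane and takes part in mitochondrial dynamics, was at -0.18 and -0.20. Of the 8 members with other or unsettled substrates (Slc25a34, Slc25a35, Slc25a43, Slc25a45, Slc25a47, Slc25a48, Slc25a53 and Slc25a54) none passed, and their differences lay between -0.40 and 0.28 in PBS and between -0.33 and 0.51 in imatinib. Family members with other names also differed: Ucp2, uncoupling protein 2, fell by 0.73 ± 0.11 in PBS and 0.80 ± 0.13 in imatinib, and Mtch2, an insertase of the outer membrane, rose by 0.57 ± 0.09 and 0.34 ± 0.10 (all 4 adjusted p at most 0.0487 in limma). Ucp1, Ucp3 and Mtch1 did not pass.

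Closely related carriers were compared within each array, by the change with time in the difference of their signals. For 12 pairs, tested after values had been seen, the mean of the PBS and imatinib changes was tested by exact permutation of the times within each treatment, two-sided, with 200 arrangements and a smallest possible p of 0.005. Slc25a5 minus Slc25a4 grew by 0.56 in PBS and 0.39 in imatinib, and this difference was 1.02 to 1.30 at 3 h and 1.50 to 2.00 at 24 h (exact p = 0.005, 0.02 after adjustment over the 12 pairs). Slc25a22 minus Slc25a18 grew by 1.22 and 1.04 (exact p = 0.005, adjusted 0.02), and Slc25a37 minus Slc25a28 by 0.47 and 0.62 (exact p = 0.01, adjusted 0.024). Slc25a25 minus Slc25a24 changed by -0.56 and -0.82 (exact p = 0.005, adjusted 0.02) and Slc25a25 minus Slc25a23 by -0.62 and -0.93 (exact p = 0.01, adjusted 0.024).

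In these 5 pairs one member passed a time comparison and its relative did not, and the test of their unequal change passed. It used the same arrays, so it is not separate support. Slc25a39 with Slc25a40 and Slc25a36 with Slc25a33 were also pairs in which only one member passed a time comparison. The rise of Slc25a13 was larger than that of Slc25a12 by 0.53 in PBS and 0.33 in imatinib (exact p = 0.015, adjusted 0.03). Smaller unequal changes also passed for Slc25a39 minus Slc25a40 (0.06 and 0.23; exact p = 0.03, adjusted 0.045) and for Slc25a14 minus Slc25a27 (0.31 and 0.37; exact p = 0.025, adjusted 0.0429). The changes of Slc25a36 against Slc25a33 (exact p = 0.145), Slc25a24 against Slc25a23 (exact p = 0.525), Slc25a14 against Slc25a30 (exact p = 0.05, adjusted 0.0667) and Slc25a27 against Slc25a30 (exact p = 0.83) did not pass.

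**Figure D3:**
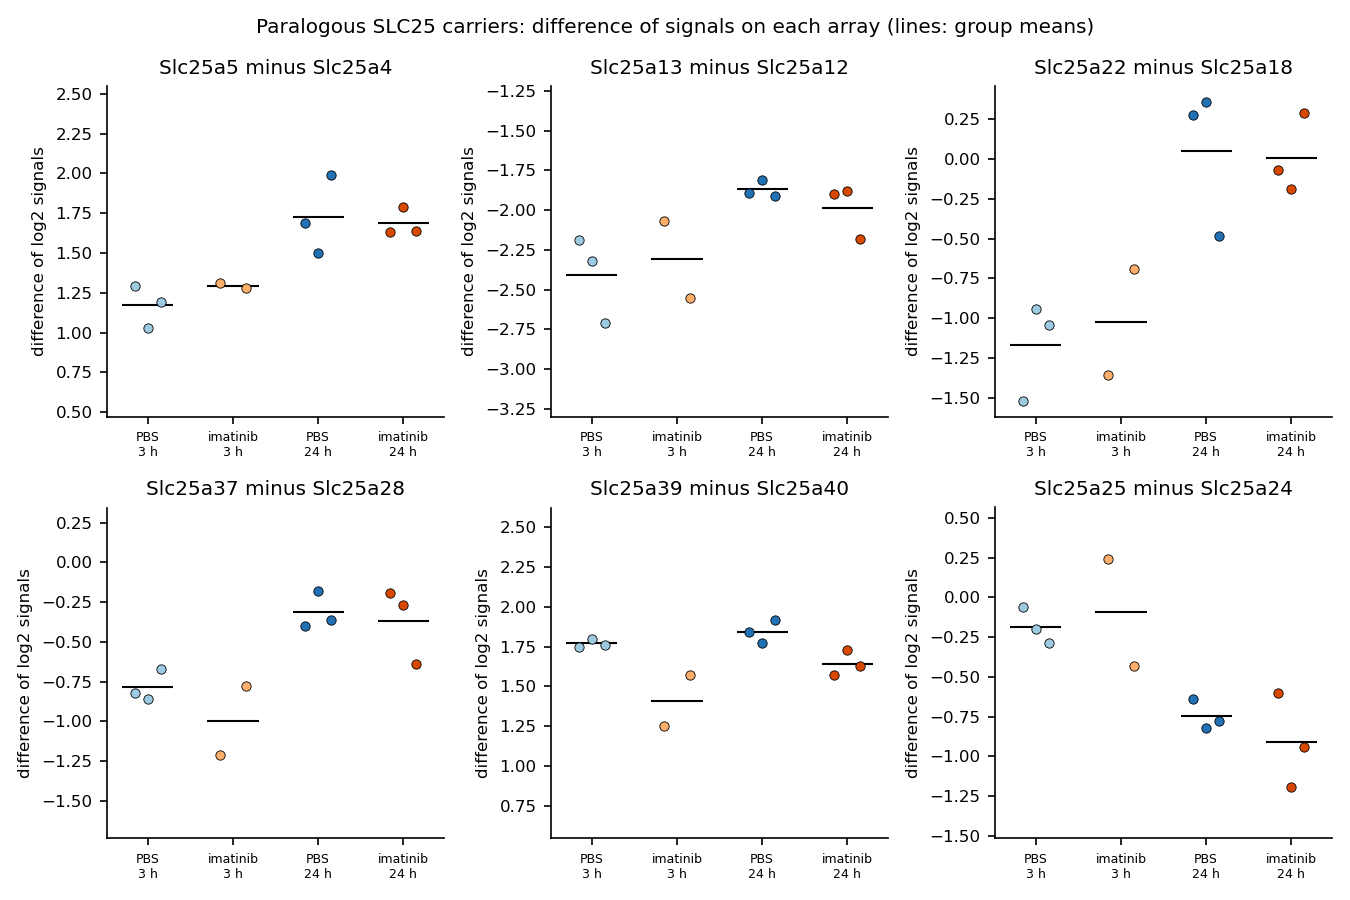
Difference of log2 signals between 2 related carriers on each of the 11 arrays, for 6 of the 12 pairs, with group means as lines; the heights compare times within a panel, since levels of different probe sets cannot be compared. Arrays at 24 h and at 3 h do not overlap for Slc25a5 minus Slc25a4, Slc25a22 minus Slc25a18, Slc25a37 minus Slc25a28 and Slc25a25 minus Slc25a24.

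Most genes of the path that imports the carriers were higher at 24 h. Of 14 measured genes of the import machinery 12 rose and none fell in PBS, and 10 rose and none fell in imatinib, with medians of 0.60 and 0.66. All 14 were above 0 in both treatments, against 20 and 26 of the 47 carriers. Tomm5, a small subunit of the outer membrane pore, rose by 1.22 ± 0.12, and the small TIM chaperones Timm8a1 and Timm9 by 1.18 ± 0.13 and 1.04 ± 0.14 in PBS (adjusted p = 5.7e-05, 0.000138 and 0.000354 in limma). Tomm70a, the receptor for carriers, rose by 0.64 ± 0.09 in PBS and 0.45 ± 0.10 in imatinib, and Timm22, the insertion pore, by 0.57 ± 0.10 in PBS (0.33 ± 0.11 in imatinib, adjusted p = 0.0836); both were named for their role, with values seen. No test compared this list with the carriers.

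Other channels of mitochondria lay between. Of 13 measured 5 rose and none fell in each treatment, with medians of 0.25 and 0.28. In PBS Sfxn1, the serine transporter of the inner membrane, rose by 1.08 ± 0.13, its relative Sfxn2 by 0.73 ± 0.12 and Mpc2, a subunit of the pyruvate carrier, by 0.42 ± 0.11 (adjusted p = 0.000196, 0.00118 and 0.0202 in limma). Regulators of mitochondrial content went both ways, with 4 of 15 higher and 3 lower in PBS and 3 higher and 1 lower in imatinib. Myc rose by 1.10 ± 0.13, Tfb1m by 0.73 ± 0.19 and Pprc1 by 0.59 ± 0.11 in PBS. Ppargc1a, the coactivator PGC-1 alpha, fell by 1.22 ± 0.18, Ppard by 0.55 ± 0.12 and Ppara by 0.41 ± 0.12 in PBS. In imatinib Ppargc1a was at -0.25 ± 0.20 (adjusted p = 0.497 in limma). Its imatinib minus PBS difference was -0.59 at 3 h and 0.38 at 24 h, and neither passed the threshold.

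**Figure D4:**
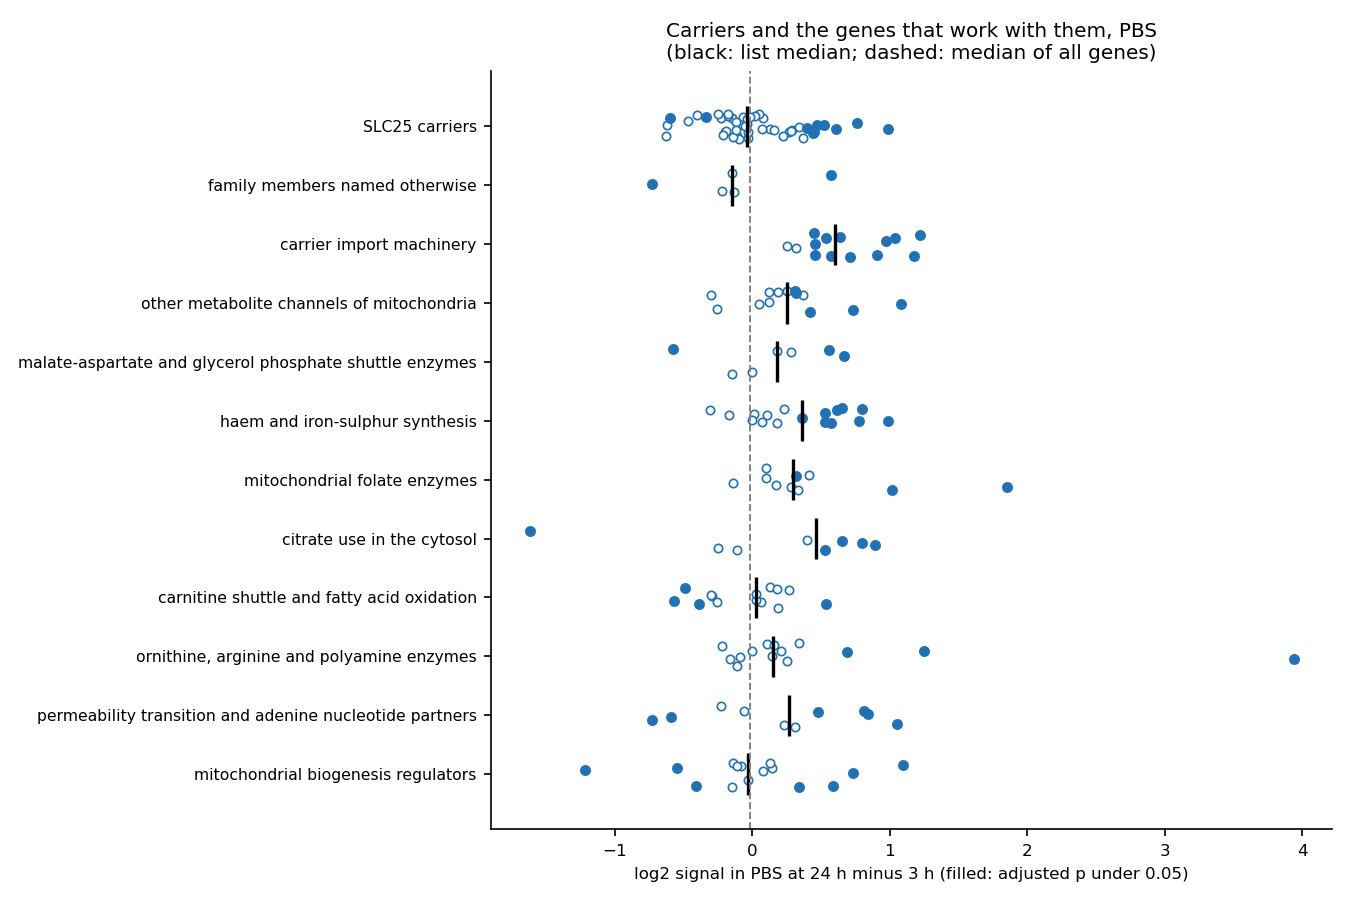
Difference in log2 signal between 24 h and 3 h in PBS for the 47 carriers and for the genes of each list of partners, filled where the adjusted p is under 0.05. The median of the import machinery is 0.60, that of the carriers -0.04 and that of all genes -0.02.

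Markers of other cells moved with the same comparison. Of 9 monocyte and macrophage markers 7 rose and none fell in each treatment, with medians of 1.20 and 1.05, and their summed unlogged signal was 6872 to 7344 in PBS and 6483 to 6766 in imatinib at 3 h, and 12247 to 14602 in PBS and 11605 to 12008 in imatinib at 24 h. Of 10 neutrophil markers 4 rose in PBS and 3 in imatinib (summed 1074 to 2766 in PBS at 3 h and 3327 to 6880 at 24 h). Of 12 endothelial markers none rose and 7 fell in PBS and 4 in imatinib (summed 29115 to 32289 in PBS and 31952 to 32516 in imatinib at 3 h, and 20758 to 23079 in PBS and 25496 to 26759 in imatinib at 24 h). Of 10 pericyte markers 7 fell in PBS and none in imatinib, but the interaction of treatment and time passed for no gene. Imatinib minus PBS was above 0 for 0 of these 10 at 3 h (median -0.29) and for 9 at 24 h (median 0.26). In PBS 2 of 6 smooth muscle, 2 of 7 oligodendrocyte and 2 of 7 microglia markers fell, 1 microglia marker rose, and none of 9 neuron or 7 lymphocyte markers passed. No monocyte, neutrophil, endothelial or pericyte marker lay below the 25th percentile on all arrays. Their part in the carrier values was not tested.

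The study's design text compares imatinib with PBS at each time. No carrier passed at 3 h or at 24 h, and none of the 30790 genes did (0%) in limma. At an unadjusted p under 0.05 there were 1 carrier and 1970 genes (6.4%) at 3 h and 0 carriers and 1879 genes (6.1%) at 24 h. The differences of the carriers, imatinib minus PBS, ran from -0.35 to 0.27 at 3 h and from -0.25 to 0.25 at 24 h. The arrays of imatinib and PBS did not overlap for 3 carriers and 18.7% of all genes at 3 h, and for 5 carriers and 13% of all genes at 24 h. The median size of the difference was 0.09 at each time over the carriers, and 0.11 and 0.10 over all genes.

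At 3 h the smallest p-values were those of Slc25a21, Slc25a40 and Slc25a37. Slc25a21 read 3.56, 3.63 and 3.44 in PBS and 3.37 and 3.25 in imatinib, all below the 25th percentile of the arrays (-0.23 ± 0.10, adjusted p = 0.772 in limma). Slc25a40 read 6.29, 5.92 and 6.16 in PBS and 6.45 and 6.28 in imatinib, which overlapped (0.25 ± 0.12, adjusted p = 0.794). Slc25a37 differed by -0.27 ± 0.14 (adjusted p = 0.816), and the value was -0.50 without imatinib 3 h replicate 2 and -0.04 without imatinib 3 h replicate 1.

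At 24 h they were those of Slc25a10, Slc25a22 and Slc25a29. Slc25a10, the dicarboxylate carrier, read 5.35, 5.55 and 5.73 in PBS and 5.90, 5.82 and 5.68 in imatinib (0.25 ± 0.12, adjusted p = 0.83 in limma), with overlap. Slc25a22 read 6.59, 6.59 and 6.50 in PBS and 6.33, 6.28 and 6.47 in imatinib (-0.20 ± 0.10, adjusted p = 0.83), and the groups did not overlap. Slc25a29 read 5.63, 5.26 and 5.49 in PBS and 5.01, 5.16 and 5.45 in imatinib (-0.25 ± 0.13, adjusted p = 0.831). For the 8 carriers that rose in PBS, imatinib minus PBS at 24 h was -0.22 to 0.08, and their 95% confidence intervals lay within -0.53 to 0.39. At 3 h the same 8 were at -0.21 to 0.02, with intervals within -0.45 to 0.37.

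The interaction subtracts the 3 h effect of imatinib from its 24 h effect. It passed for no carrier and no gene (0%) in limma, and at an unadjusted p under 0.05 there were 0 carriers and 1690 genes (5.49%). The smallest p-values among the carriers were those of Slc25a21 (0.28 ± 0.13, adjusted p = 0.904), Slc25a14 (0.35 ± 0.23, adjusted p = 0.929) and Slc25a1 (0.18 ± 0.13, adjusted p = 0.932). For Slc25a36 it was 0.03 ± 0.15 and for Slc25a37 0.21 ± 0.19, so neither time difference was shown to depend on imatinib. The widest 95% interval of a carrier reached 0.88 to either side of its value, and the number of arrays limits this precision.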

How the data were processed

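RNA of 11 samples was measured on Affymetrix arrays. Per the labels, 10 ng of total RNA was amplified and biotin-labelled with NuGEN kits, and per the submitters' processing notes Affymetrix Expression Console, RMA and limma were used; versions, array type and build are not given there. The authors deposited log2 signals after RMA for 33793 probe sets, and these were used unchanged. Workbook and series matrix held equal values (largest gap 0). The authors' deposited log2 differences equalled differences of group means within 1.1e-14. Probe sets without a symbol (1591), with several (128) or with a date for a symbol (14) were left out, and the row with the highest mean was kept for the 730 genes with several, which left 30790 genes.

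Groups came from the titles. limma 3.58.1 (R 4.3.3) fitted 1 mean per group on all 11 arrays, with 5 contrasts, moderated variances (residual degrees of freedom 7, prior 4.37) and Benjamini-Hochberg adjustment over all genes at 0.05. The script was tested on simulated data. Pair tests and motif searches ran in Python 3.11.15, and figures were drawn with matplotlib 3.10.9. Markers and 11 partner lists were written from general knowledge. Members and lists were chosen with earlier results of these data known, and the pairs were tested after values were seen. Any member could be named; of each partner list, the genes that moved most past the threshold in PBS over time were named, at most 3 in each direction, and any other is marked as named after its values were seen. Depth does not apply to arrays, and their number limits precision. Replicate numbers of the titles did not pair samples: same-numbered arrays deviated from their group means with correlations of -0.04 to 0.06 (15 pairs). Alternatives changed the fit, filter, row choice, scaling and weights, added a replicate block, or left out each array. Results for a few genes are not reported here by name, though counts include them.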

Additional observations from a re-analysis of the deposited data

How the results depend on the processing

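The alternatives refitted every gene kept, and 31 values of single carriers were compared one by one. Of these, 22 were time differences of the members past the threshold in either treatment. None of the 31 changed direction. Other gene values entered only the counts. The number of members lower over time in PBS, 2 as reported, was 1 with only the arrays of the 2 groups compared, with arrays centred on their medians or with array quality weights. The number lower in imatinib, 1 as reported, was 2 with only the arrays of the 2 groups compared or with array quality weights, 3 with quantile normalization and 4 without genes below the median signal. Between imatinib and PBS at 3 h, 2 genes of the whole array, no carrier among them, passed without genes below the 25th percentile, with centred arrays or with quantile normalization. Other settings gave 7 to 12 members higher in PBS and 8 to 10 in imatinib. The calls of Slc25a11, Slc25a36, Slc25a37 and Slc25a39 that they ended or added are given with those genes. Calls added for members outside the 22 values are in the counts only.

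With 1 array left out, members higher in PBS numbered 6 to 9, lower 0 to 3, and all genes called 3886 to 4973. In imatinib these were 3 to 10, 0 to 2 and 2274 to 4233. All genes called were 0 to 4 for imatinib at 3 h, 0 to 1 at 24 h and 0 to 2 for the interaction, with 0 carriers in each. Without an imatinib 3 h array, the lone array left was assumed to vary like the other groups. In PBS Slc25a1, Slc25a5, Slc25a12, Slc25a13, Slc25a15 and Slc25a22 passed without each array in turn, and in imatinib Slc25a1 and Slc25a22 did.

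The replicate numbers did not pair the samples. With the replicate number as a block, 8 members were higher and 2 lower in PBS (4844 genes in all), and 8 and 1 in imatinib (3379 in all). Slc25a11 no longer passed in PBS (0.47, adjusted p = 0.0744 in limma) or imatinib (0.62, adjusted p = 0.057), nor Slc25a5 in imatinib (0.48, adjusted p = 0.0537). The block changed no imatinib count from 0. The interaction was not run with only the arrays of 2 groups, since it needs all 4. Few arrays, and 2 in imatinib at 3 h, limit precision, and Slc25a21 and Slc25a54 are further limited by low signal.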
